A study of Homo sapiens with 6 samples.

Results

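The genomic regions described here carried TLE3 peaks at 7 genes whose products regulate or mark basal epithelial cells: TP63, SOX9, SOX10, EN1, BCL11A, VGLL1 and TRIM29. Peaks of 4 chromatin immunoprecipitation and sequencing (ChIP-seq) libraries were merged wherever they shared at least 1 bp. A merged region was assigned to a gene when it lay inside the gene's span, or when that gene was the nearest protein-coding gene within 100 kb. This gave 50 of the 72272 merged regions, at 7 of 20037 protein-coding genes. The regions were chosen by the peak calls themselves, and the genes were picked with results of these lists known. All counts below are therefore a description and carry no test.

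The cells were MDA-MB-453, an established human breast cancer line. FOXA1 was silenced transiently with a short interfering RNA in 2 libraries (siFOXA1 1 and siFOXA1 2), and 2 control libraries received siNS (siNS 1 and siNS 2), a label that the sources used here do not spell out. All 4 were precipitated with the same antibody to TLE3, after a further cross-linking reagent had been applied ahead of formaldehyde, and each group's libraries were labelled as biological replicates. The 2 input libraries, which the labels assign to MDA-MB-454, were not analysed here. Genotype, treatment time and FOXA1 knockdown efficiency were not given in the labels, and everything below comes from 1 cell line. Peak lists hold no expression values, so neither the silencing nor the basal or luminal state of the cells could be checked. A region beside a gene does not show that the gene is expressed or regulated.

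TLE3 belongs to the Groucho family of corepressors, which do not bind DNA themselves and are brought to chromatin by transcription factors. The pioneer factor FOXA1, a forkhead protein of the luminal lineage, opens chromatin for other factors. TP63, a relative of p53, is the master factor of basal and squamous epithelium, and its gene makes several protein forms from alternative promoters. SOX9 and SOX10 are HMG-box factors, SOX9 of progenitor cells and SOX10 of neural crest derivatives and basal-like tumours. EN1 is an engrailed homeobox factor that binds Groucho proteins through a short repression motif, and BCL11A is a zinc finger factor found with the BAF chromatin remodelling complex. VGLL1 is a cofactor of the TEAD factors that end the Hippo pathway, and TRIM29 is a tripartite motif protein abundant in basal layers.

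The lists held 12249 and 13754 usable peaks in siFOXA1 1 and siFOXA1 2, against 45105 and 46586 in siNS 1 and siNS 2. Sequencing depth is unknown, since the lists hold no reads. The deposited score of each peak has no stated definition. It was used to place a peak within its own list, as a percentile (the percentage of that list's peaks with a score at or below it). Median scores were 9.57 and 10.3 in the siFOXA1 lists and 9.88 and 12 in the siNS lists. Across all pairs of lists, at most 1 peak had identical ends in both. Regions are called siFOXA1-only or siNS-only when both libraries of that group and neither of the other had a peak, and common when all 4 did. A consensus region of a group had a peak of both its libraries, whatever the other group showed.

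Promoter sequence was compared with the peaks at the start sites for which RefSeq windows were used, each covering the 250 bases before the start on GRCh38.p14, written 5′ to 3′ along the gene's own strand. The windows shown are 3 that a siNS-only region covered in whole or in part, and those of TP63 and VGLL1, which no region of any library touched. For TP63 only 1 start site, at position 189631389, was examined, so its alternative promoters elsewhere were not compared with the peaks. Capitals mark a match to a searched motif. The BCL11A window (chr2:60553925-60554174, minus strand) lay wholly within a siNS-only region, and 64.8% of its bases were G or C. LINC01152 is a noncoding gene under the most distant SOX9 region, which covered 225 of its window's bases (chr17:72030404-72030653, plus strand). LOC107984399 is a locus under the siNS-only region beyond TRIM29, which covered 35 bases of its window (chr11:120168727-120168976, plus strand). The windows of TP63 (chr3:189631139-189631388, plus strand) and VGLL1 (chrX:136531965-136532214, plus strand) had G or C at 44% and 43.6% of bases.
BCL11A: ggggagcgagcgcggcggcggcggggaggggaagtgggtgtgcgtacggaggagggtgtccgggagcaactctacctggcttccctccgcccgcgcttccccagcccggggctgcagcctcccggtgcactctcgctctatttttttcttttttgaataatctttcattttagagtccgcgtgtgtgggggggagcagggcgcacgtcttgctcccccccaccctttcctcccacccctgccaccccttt
LINC01152: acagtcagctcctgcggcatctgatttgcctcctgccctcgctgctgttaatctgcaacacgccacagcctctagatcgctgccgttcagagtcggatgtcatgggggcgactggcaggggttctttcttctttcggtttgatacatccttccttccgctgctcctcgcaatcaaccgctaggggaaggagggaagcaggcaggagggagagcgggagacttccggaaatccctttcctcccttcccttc
LOC107984399: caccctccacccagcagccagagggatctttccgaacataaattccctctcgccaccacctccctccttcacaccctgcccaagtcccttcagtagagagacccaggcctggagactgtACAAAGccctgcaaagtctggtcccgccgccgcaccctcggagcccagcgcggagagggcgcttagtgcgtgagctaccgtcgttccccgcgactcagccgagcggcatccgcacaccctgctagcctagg
TP63: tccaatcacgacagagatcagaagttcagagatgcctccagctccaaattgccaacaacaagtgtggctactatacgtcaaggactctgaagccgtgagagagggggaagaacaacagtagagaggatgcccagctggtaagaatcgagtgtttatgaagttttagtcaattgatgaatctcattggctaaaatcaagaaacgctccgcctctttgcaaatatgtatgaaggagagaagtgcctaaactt
VGLL1: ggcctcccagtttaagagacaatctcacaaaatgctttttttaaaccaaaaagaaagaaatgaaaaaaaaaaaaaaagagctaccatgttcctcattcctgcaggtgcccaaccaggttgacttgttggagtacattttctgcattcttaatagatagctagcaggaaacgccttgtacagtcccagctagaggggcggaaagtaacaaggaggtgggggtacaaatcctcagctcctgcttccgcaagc

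Motifs were searched as exact letters on both strands: TGTTTAC and TATTTAC for forkhead factors, ACAATG and ACAAAG for SOX factors, CTTTGAT for TCF/LEF, TGTGGTT for RUNX and CACGTG for HES and other bHLH factors. They were chosen after the lists had been seen, and none contains another. In the 5 windows shown, 1 match was found, the SOX letters ACAAAG 131 bases before the start of LOC107984399. This match lay outside the siNS-only region, which covered only the 35 bases of that window nearest the start. Another BCL11A start site, with its window at chr2:60552715-60552964 outside any region, had ACAATG 152 bases before it. A SOX match occurred in 21.2% of all 35116 RefSeq windows of this length, a forkhead match in 5.27%, a TCF/LEF match in 2.26%, a RUNX match in 3.65% and a bHLH match in 6.34%. A match is a description of the letters and not a binding site, and a window without one says nothing about a factor's binding elsewhere in the region.

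TLE3 peaks at the 7 genes differed by gene. TP63 had regions found in both siFOXA1 libraries and absent from both siNS libraries, and siNS-only regions too. SOX9, SOX10, BCL11A and TRIM29 had no peak in either siFOXA1 library. A region in both siFOXA1 libraries was found at 19.4% of all protein-coding genes, so most genes lacked such a region. That measure is stricter than a peak in either library. The share of all genes without any siFOXA1 peak was not counted. VGLL1 had 1 siFOXA1-only and 1 common region, and EN1 had 1 common and no siFOXA1-only region. Of the 50 regions, 5 were siFOXA1-only (10%, exact 95% binomial interval 3.33 to 21.8%), against 4.54% of all merged regions. Another 15 were siNS-only (30%, 17.9 to 44.6%), against 28.7% of all, and 2 were common (4%, 0.488 to 13.7%), against 3.60% of all. The siNS-only and common shares were thus near their background. The 28 others were found in 1 library, or in a mixture of both groups. A peak in 1 library alone accounted for 25 regions, which is 50% against 55.4% of all. Of these, 2 were in siFOXA1 1, 1 in siFOXA1 2, 15 in siNS 1 and 7 in siNS 2. These intervals cover counting error over regions and not variation between cultures. Leaving out siNS 1 gave 23 siNS-only and 4 common regions and leaving out siNS 2 gave 31 siNS-only, since fewer libraries then have to share a peak.

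**Figure D1:**
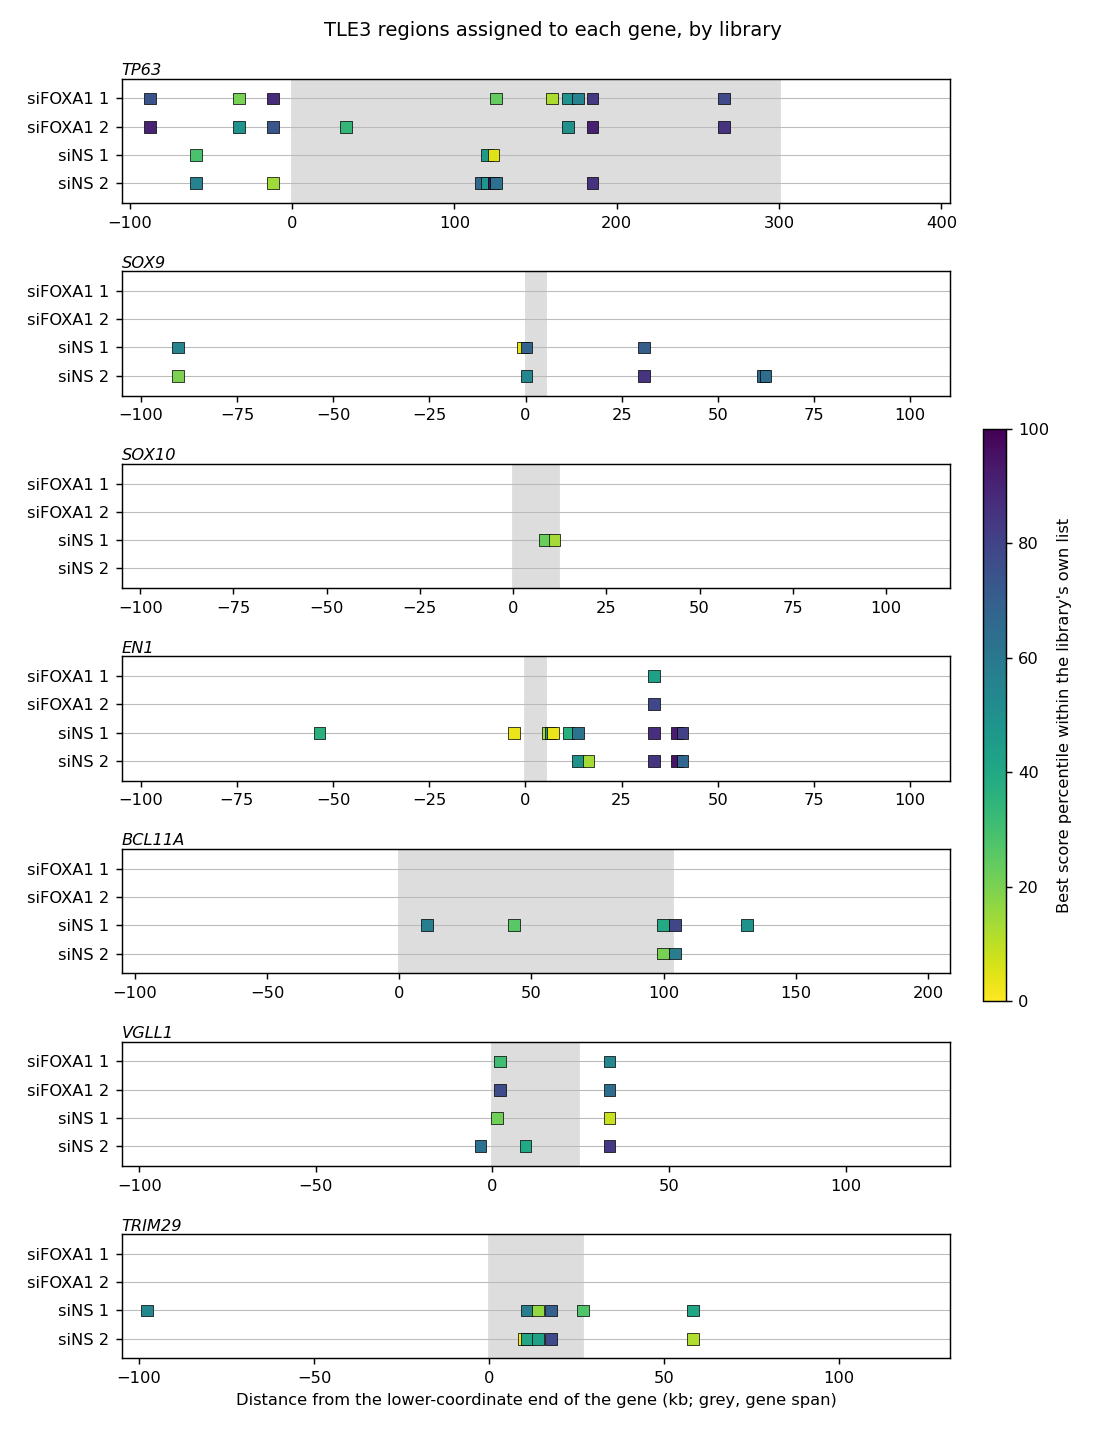
Position of each merged TLE3 region (squares) along the 7 genes, in kb from the gene's lower-coordinate end, with 1 row per library and colour for the best score percentile within that library's list (grey band, gene span). Squares of both siFOXA1 libraries lie at 6 places of TP63, 1 of EN1 and 2 of VGLL1, and the siFOXA1 rows of SOX9, SOX10, BCL11A and TRIM29 are empty.

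TP63 (chr3:189596746-189897276) had 14 regions, more than any of the other 6 genes, of which 10 lay inside its span. Per Mb of sequence that could be assigned to it, TP63 had 32.5 regions, near the 30.6 over all assigned sequence. In all, 10 regions had a peak of a siFOXA1 library and 7 a peak of a siNS library, 3 of them shared. The siFOXA1 consensus held 6 regions and the siNS consensus 3, and no region belonged to both. Of the 6, 4 had no siNS peak at all (66.7%, exact interval 22.3 to 95.7%), against 40.0% of all 8205 siFOXA1 consensus regions.

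Of these siFOXA1-only regions at TP63, 2 lay before the lower-coordinate end and 2 inside the gene. The most distant, chr3:189508945-189509486 and 87.3 kb before that end, scored 16.2 in siFOXA1 1 and 34.3 in siFOXA1 2, the 74.6th and 90.6th percentiles. At chr3:189563850-189564465, 32.3 kb before the end, the scores were 5.7 and 9.82, at percentiles 20.4 and 48.6. This was the weakest of the 4 by both lists. Inside the gene, chr3:189766340-189766894 scored 9.2 in siFOXA1 1 and 10.2 in siFOXA1 2 (percentiles 48.6 and 49.9), close to the middle of each list. The region chr3:189862384-189863305, 33971 bp short of the higher end, scored 17.7 and 26.5 (percentiles 77.5 and 85.9). The nearest siNS peak of any library was 27.9, 20, 14.4 and 74 kb away from these 4 regions in order of position, so no control peak lay next to any of them.

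The other 2 siFOXA1 consensus regions of TP63 also had a peak in siNS 2 and none in siNS 1. At chr3:189584421-189585302, 11.4 kb before the lower end, the scores were 26.4 in siFOXA1 1, 17.1 in siFOXA1 2 and 5.51 in siNS 2 (percentiles 87.6, 73.6 and 14.4). This was the highest TP63 peak of siFOXA1 1 and the lowest of siNS 2. Inside the gene, chr3:189781302-189782266 scored 21.7 and 36 in the siFOXA1 libraries and 41 in siNS 2 (percentiles 83.2, 91.3 and 85.7). It was the widest TP63 region, at 965 bp, and ranked high in all 3 lists that held it. Without siNS 2, both count as siFOXA1-only, and TP63 then had 6 such regions in place of 4.

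The 3 siNS consensus regions of TP63 had no siFOXA1 peak. Near the middle of the gene, chr3:189720606-189721176 scored 3.92 in siNS 1 and 90.2 in siNS 2 (percentiles 4.99 and 95.5). The control replicates thus placed it at opposite ends of their lists. At chr3:189716883-189717234 the siNS 1 and siNS 2 scores were 8.92 and 11.1 (percentiles 46.1 and 47.9), and at chr3:189537422-189537840, 58.9 kb before the gene, 6.18 and 13.5 (percentiles 28.6 and 55.5). No siNS 1 peak at TP63 reached the middle of its list. Leaving out siNS 1 gave 7 siNS consensus regions, since each siNS 2 peak then counts. The remaining 5 regions were inside the gene, 4 of them in 1 library (2 in siFOXA1 1, 1 in siFOXA1 2 and 1 in siNS 2) and 1 in siFOXA1 1 and siNS 2. The start site of the TP63 window printed above, at position 189631389, had as its nearest region the siFOXA1 2 peak 1341 bp before it (chr3:189629775-189630048, score 7.81, percentile 33.8). No TP63 region lay within 1 kb of an end of the gene.

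SOX9 (chr17:72121020-72126416) is a short gene in a wide gene-poor interval, with its neighbouring protein-coding genes KCNJ2 and SLC39A11 1941 and 520 kb away. It had 6 regions, all from siNS libraries, of which 3 were siNS-only. One covered the lower-coordinate end of SOX9 (chr17:72120594-72121970) and held 2 peaks of siNS 1 and 1 of siNS 2, with best scores of 19.2 and 13.3 (percentiles 67.7 and 54.2). The strongest by rank was 25.1 kb beyond the higher end (chr17:72151520-72152064), scoring 21.4 in siNS 1 and 39.6 in siNS 2 (percentiles 70.4 and 85). The third, 90.1 kb before the gene and overlapping LINC01152 (chr17:72030429-72030956), scored 11.6 and 6.1 (percentiles 54.7 and 19.8). All 3 siNS-only regions were thus in both control lists at middle or higher ranks in at least 1 of them. A weak siNS 1 peak lay 607 bp before the lower end (chr17:72120167-72120413, score 3.38, percentile 3.29). A pair of siNS 2 peaks lay 56.1 and 56.8 kb beyond the gene, with scores of 18.3 and 17.7 (percentiles 65.7 and 64.6). Leaving out siNS 1 or siNS 2 gave SOX9 5 siNS consensus regions in place of 3.

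SOX10 (chr22:37972312-37984555) overlaps POLR2F, an RNA polymerase subunit gene. It had 2 regions, both inside its span and both from siNS 1 alone. They scored 5.68 (chr22:37980494-37980925) and 4.55 (chr22:37983290-37983540), at percentiles 22.7 and 13.5. SOX10 therefore had no consensus region in either group, and its 2 peaks rested on 1 library. They would count as siNS consensus regions without siNS 2. Of the 7 genes it was alone in lacking a siNS consensus region, and 61.6% of all protein-coding genes had one. Its neighbours left 12.3 kb of sequence that could be assigned to it, the least of the 7.

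EN1 (chr2:118842171-118847648) had 11 regions, none inside the gene and all with a siNS peak. Its protein-coding neighbours INSIG2 and MARCO were 731 kb before and 94.5 kb after it, and most regions lay beyond the higher-coordinate end. A common region 27.6 kb beyond that end (chr2:118875273-118875839) scored 8.4 in siFOXA1 1 and 20 in siFOXA1 2, against 45 in siNS 1 and 38.6 in siNS 2. These were percentiles 42.9 and 78.7 in the siFOXA1 lists and 86.6 and 84.5 in the siNS lists. This was EN1's only region with a siFOXA1 peak. The highest ranked EN1 region had no siFOXA1 peak: chr2:118881373-118881917, 33.7 kb beyond the gene, scored 65.7 in siNS 1 and 80.2 in siNS 2 (percentiles 92.2 and 94.6, ranks 3514 and 2509). It was the only region of the 50 above the 90th percentile in both libraries of a group. A neighbour 35.1 kb out (chr2:118882711-118883348) scored 32.9 and 19.4 (percentiles 80.5 and 67.5), and another at 7.99 kb (chr2:118855638-118856193) scored 15.2 and 11.8 (percentiles 62 and 49.6).

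Of the other EN1 regions, 6 were in siNS 1 alone and 1 in siNS 2 alone. The 6 scored from 3.38 to 8.48 (percentiles 3.29 to 44.3), all below the middle of the siNS 1 list. Those within 1 kb of the gene were at 235 bp (chr2:118847883-118848129, score 4.55) and 878 bp (chr2:118848526-118848862, score 8.48) beyond its higher end. Without siNS 2, EN1 had 10 siNS consensus regions in place of 4, since each siNS 1 peak then counts.

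BCL11A (chr2:60450520-60553924, minus strand) had 5 regions, all from siNS libraries and 4 of them inside the gene. The siNS-only region over its higher-coordinate end, where the gene starts, was the widest of the 50 at 2063 bp (chr2:60553725-60555787). It held 1 peak of siNS 1, scoring 30.2, and 2 of siNS 2, the better scoring 14.6 (percentiles 78.7 and 57.9). It spans the BCL11A window printed above and 180 bases of the window of a second start site. A second siNS-only region lay 3333 bp inside that end (chr2:60550020-60550591), with scores of 7.65 and 6.18 (percentiles 39.5 and 20.5). It was 316 bp from another BCL11A start site, at position 60550907. Both siNS-only regions thus lay near start sites of the gene, and the other 3, with siNS 1 scores of 12.8, 5.8 and 9.75, were in siNS 1 alone. Without siNS 2 the gene had 5 siNS consensus regions in place of 2.

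VGLL1 (chrX:136532215-136556799) had 5 regions, 2 of them in both siFOXA1 libraries. A common region 8.12 kb beyond the gene (chrX:136564916-136565698) scored 10.1 in siFOXA1 1 and 13.9 in siFOXA1 2, against 4.22 in siNS 1 and 35.7 in siNS 2. The percentiles were 54.2 and 64.6 in the siFOXA1 lists and 7.93 and 83 in the siNS lists. The siFOXA1 libraries thus placed it near each other, and the siNS libraries far apart. The siFOXA1-only region was inside the gene, 1879 bp from its start (chrX:136534094-136534507), and scored 6.84 in siFOXA1 1 and 19.1 in siFOXA1 2 (percentiles 30.8 and 77). A siNS 1 peak lay 413 bp from it (chrX:136533412-136533681, score 5.64, percentile 21.6), so TLE3 was called close by in 1 control library. The other 2 regions were in siNS 2 alone, 3.1 kb before the gene (score 16.8, percentile 62.5) and inside it (score 9.23, percentile 39.8). Without siNS 1, VGLL1 had 3 siNS consensus regions in place of 1, and without siNS 2 it had 2.

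TRIM29 (chr11:120111286-120138113) had 7 regions, all from siNS libraries, and 4 were siNS-only, the most of the 7 genes. Of these, 3 lay inside the gene. The strongest, chr11:120128656-120129290, scored 20.8 in siNS 1 and 28.1 in siNS 2 (percentiles 69.9 and 77.6). At chr11:120121673-120122563 the scores were 13 and 9.46 (percentiles 58 and 41.2), and at chr11:120125025-120125427 they were 5.04 and 9.79 (percentiles 16.1 and 42.9). The last of the 4 lay 30.8 kb beyond the higher end and over LOC107984399 (chr11:120168942-120170185), with scores of 7.84 and 5.13 (percentiles 40.7 and 11.8). A siNS 1 peak covered the higher-coordinate end of TRIM29 (chr11:120137971-120138352, score 6.06, percentile 27.4). Other regions were in siNS 1 alone, 97.5 kb before the gene (score 11), and in siNS 2 alone inside it (score 3.37, percentile 1.43). None of the 7 regions reached the 90th percentile of a list.

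The 100 kb limit lay between the distant TRIM29 region at 97.5 kb, with a siNS 1 score of 11, and the nearest region left out, a siNS 1 peak 119 kb before TRIM29 with a score of 4.55. Between 100 and 500 kb, 11 further regions had one of these genes as nearest neighbour, 5 at EN1, 4 at TRIM29 and 2 at SOX9. One at EN1 was common (chr2:118519996-118520846, 321 kb before the gene), with scores of 23 and 43.8 in siFOXA1 1 and 2, against 62.4 and 80 in siNS 1 and 2. Another at EN1 was siNS-only (chr2:118696796-118697297, 145 kb before it), scoring 24 and 26.9 in siNS 1 and 2. The other 9 were in neither group's consensus.

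Peaks were also counted by library. TP63 had 9 and 7 peaks in siFOXA1 1 and 2, against 3 and 7 in siNS 1 and 2 (mean 8 ± 1.41 against 5 ± 2.83, SD, n = 2 each). The groups touched at 7 peaks. Set against the length of each list, TP63 had 7.35 and 5.09 peaks per 10000 in siFOXA1 1 and 2. In siNS 1 and 2 it had 0.665 and 1.5 per 10000. The siFOXA1 lists were shorter, which raises such values there for any gene. How many other genes differ in this way was not counted. SOX9 had 0 peaks in each siFOXA1 library and 5 in each siNS library, and TRIM29 had 0 and 0 against 6 and 5. BCL11A likewise had 0 and 0 peaks, against 5 and 3. SOX10 had 0 and 0 against 2 and 0. EN1 had 1 peak in each siFOXA1 library, against 10 and 5 in siNS 1 and 2, and VGLL1 had 2 in each siFOXA1 library, against 2 and 3. VGLL1 was the second gene with more peaks per 10000 in siFOXA1, at 1.63 and 1.45, against 0.443 and 0.644 in siNS. Its peak numbers were no higher in siFOXA1, so this difference appeared only when set against list length. With the lists cut to equal length, as described below, VGLL1 had 2 peaks in each siFOXA1 library, against 0 and 1 in siNS 1 and 2. The reason for the difference was not tested. Without TP63, the other 6 genes had 3 peaks in each siFOXA1 library, against 30 and 21 in siNS 1 and 2. Per 10000 peaks of a list that was 2.45 and 2.18, against 6.65 and 4.51. No test was made, since the genes were chosen with these counts known.

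**Figure D2:**
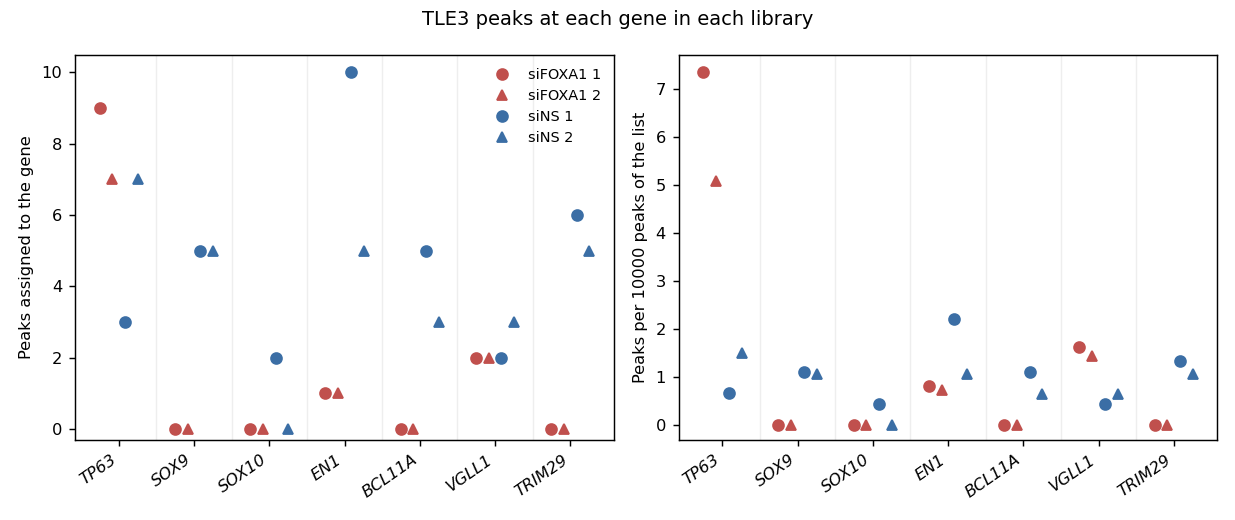
TLE3 peaks assigned to each gene in each library, as a number (left) and per 10000 peaks of the library's list (right), with red for siFOXA1, blue for siNS, circles for library 1 and triangles for library 2. TP63 stands at 7.35 and 5.09 per 10000 in siFOXA1, against 0.665 and 1.5 in siNS, and 3 of the other genes have siNS peaks in both control libraries and no siFOXA1 peak.

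The siNS lists were longer, so they were also compared at equal length. With each list shortened to its 12249 highest scoring peaks, scores down to 23.7 and 24.2 remained in siNS 1 and siNS 2, which is 27.2% and 26.3% of those lists. The siFOXA1 lists kept 100% and 89.1% of their peaks, so by construction siNS-only regions can hardly increase and siFOXA1-only regions can hardly decrease in this comparison. The 7 genes then had 19 regions, of which 6 were siFOXA1-only (31.6%, against 16.6% of all 28242 regions from these lists) and 1 was siNS-only (5.26%, against 18.3% of all). That siNS-only region was at EN1. SOX9, BCL11A and TRIM29 had 1 region each and no consensus region, and SOX10 had none. Their absence from the siFOXA1 lists therefore concerned peaks that, in all but 3 regions, ranked below the level at which the lists are of equal length. TP63 then had 11 regions, 5 of them siFOXA1-only and 0 siNS-only, with 9 and 7 peaks in siFOXA1 1 and 2, against 0 and 2 in siNS 1 and 2. Whether list length reflects depth, precipitation yield or binding was not tested.

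**Figure D3:**
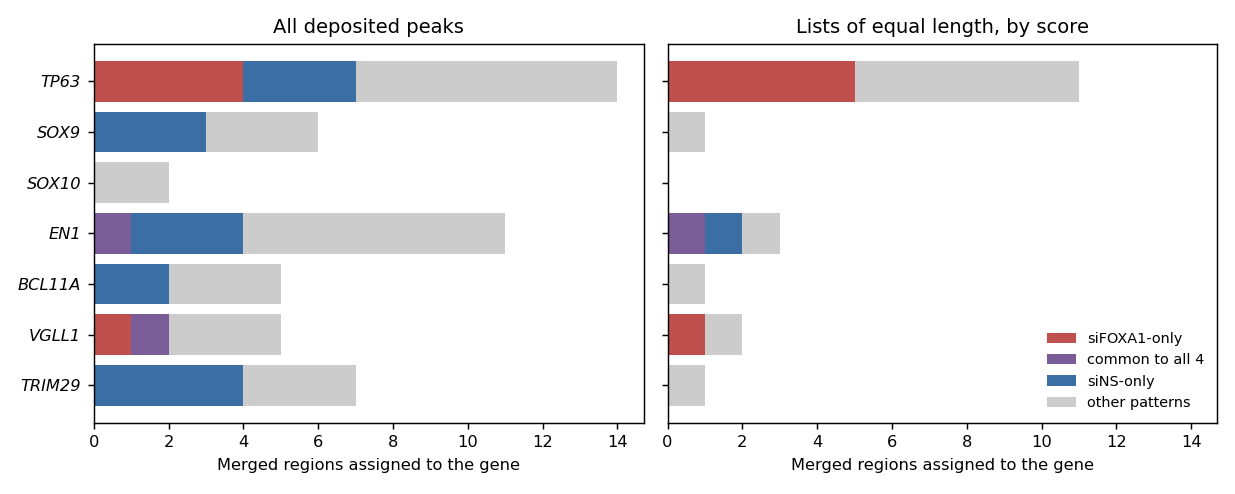
Merged regions per gene by library pattern, with all deposited peaks (left) and with each list shortened to 12249 peaks by score (right). TP63 has 4 siFOXA1-only and 3 siNS-only regions on the left and 5 and 0 on the right, and the siNS-only bars of SOX9, BCL11A and TRIM29 are also absent on the right.

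Of the 17 siNS consensus regions at the 7 genes, 2 overlapped a siFOXA1 peak (11.8%, exact interval 1.46 to 36.4%), against 17.0% of all 24967. These were the common regions of EN1 and VGLL1. In the other direction, 5 of the 9 siFOXA1 consensus regions had no siNS peak (55.6%, 21.2 to 86.3%), against the 40.0% of all given above. Both intervals include the share of all regions. Of the 50 regions, 6 lay no more than 1 kb from a protein-coding gene's end (12%, 4.53 to 24.3%), against 21.2% of all merged regions. All 6 were siNS regions: 2 at SOX9, 2 at EN1 and 1 each at BCL11A and TRIM29. None of the 13 regions with a siFOXA1 peak lay that near an end, and over all 17518 merged regions with a siFOXA1 peak the share was 5.10%, so 0 of 13 is near the background.

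The peaks of these genes ran over most of the range of ranks, between percentiles 1.43 and 95.5. Their median percentile was 51.4 in siFOXA1 1 and 75.3 in siFOXA1 2, against 39.5 in siNS 1 and 56.7 in siNS 2. At or above the 90th percentile lay 0 of 12 peaks in siFOXA1 1, 2 of 10 in siFOXA1 2, 1 of 33 in siNS 1 and 2 of 28 in siNS 2. Both of siFOXA1 2 were at TP63. Between replicates the percentile of a consensus region differed by a median of 14 points in siFOXA1, against 12.5 over all siFOXA1 consensus regions. In siNS the median difference was 16.8 points, against 12.8 over all siNS consensus regions. The difference passed 50 points in 0 of 9 siFOXA1 consensus regions, against 5.44% of all. It did so in 2 of 17 siNS consensus regions, at TP63 (90.5 points) and VGLL1, against 5.01% of all.

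**Figure D4:**
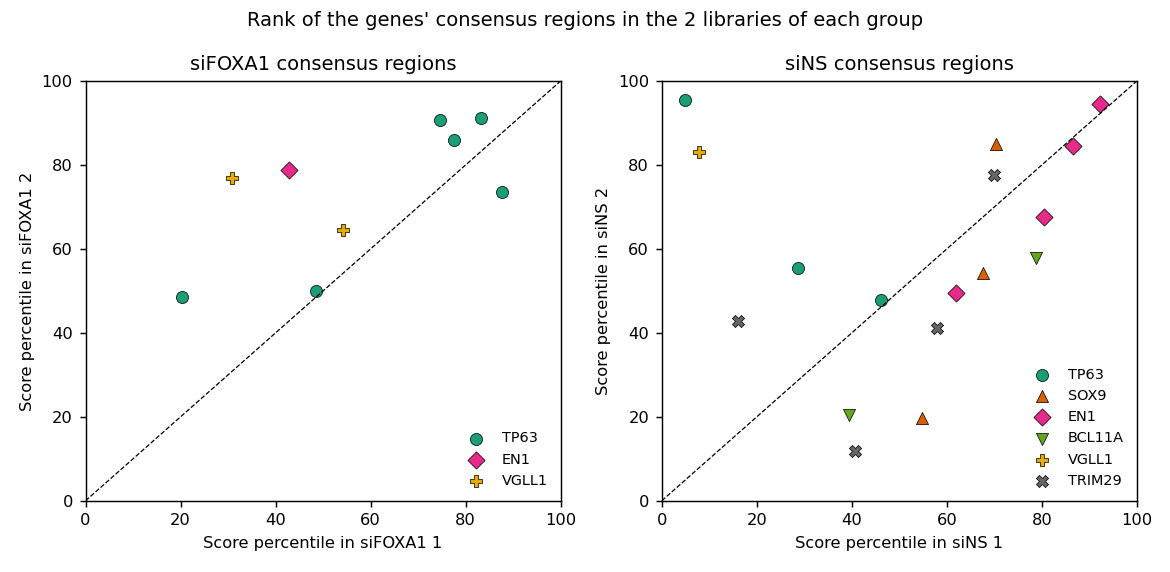
Score percentile of each consensus region in library 1 (horizontal) and library 2 (vertical) of siFOXA1 (left, 9 regions) and siNS (right, 17 regions), with the gene as colour and marker and equality as a dashed line. In the siNS panel a TP63 region (4.99 and 95.5) and a VGLL1 region (7.93 and 83) lie far from the line.

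Among all protein-coding genes, TP63 was 1 of 52 with at least 4 siFOXA1-only regions (0.260%), and 22 genes had more. It was also 1 of 64 genes with at least 6 siFOXA1 consensus regions. A siFOXA1 consensus region was assigned to 3 of the 7 genes (TP63, EN1 and VGLL1), against 19.4% of all protein-coding genes. More siFOXA1 than siNS consensus regions were found at TP63 (6 and 3) and VGLL1 (2 and 1), against 5.45% of all protein-coding genes. TP63 was chosen with these counts known and its assigned sequence, 430 kb, was the longest of the 7. Per Mb of assigned sequence, TP63 had 9.3 siFOXA1-only and 6.97 siNS consensus regions, against 1.04 and 11.4 over all assigned sequence. VGLL1, with 80.2 kb assigned, had 12.5 of each, from 1 region of each kind. The genes nearest to TP63 in their numbers of siNS-only, common, siFOXA1-only and other regions were FUT8 and ZNF704 (distance 1), ESRRG (1.41), and ADK and DIAPH2 (1.73), and none had the same 4 numbers. The numbers of BCL11A were shared by 234 genes, those of SOX9 by 90, those of TRIM29 by 26, those of EN1 by 11 and those of VGLL1 by 7.

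**Figure D5:**
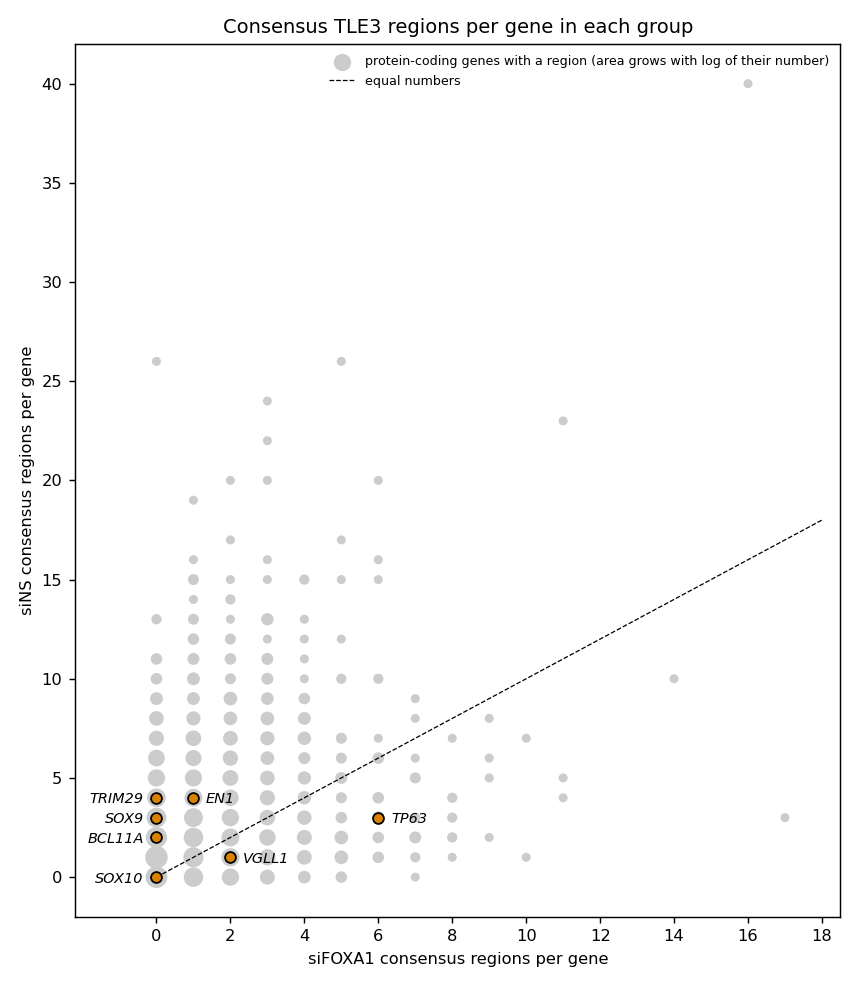
Number of siFOXA1 consensus regions (horizontal) and siNS consensus regions (vertical) per protein-coding gene, with grey area growing with the log of the number of genes and orange points for the 7 genes. TP63 (6 and 3) and VGLL1 (2 and 1) lie below the dashed line of equal numbers.

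Related genes were counted from lists of 135 genes without the 7. A siFOXA1 consensus region lay at 6 of 34 basal genes and a siNS consensus region at 21, and 12 of the 53 siNS consensus regions of this list overlapped a siFOXA1 peak (22.6%). The shares of basal genes, 17.6% and 61.8%, were near the 19.4% and 61.6% of all protein-coding genes. ITGB6, an integrin subunit of epithelia, had 3 siFOXA1 and 6 siNS consensus regions, and CDH3, the P-cadherin of basal cells, had 0 and 5. Of 10 myoepithelial genes 2 had a siFOXA1 and 6 a siNS consensus region, and 4 of 13 regions were kept, meaning that they overlapped a siFOXA1 peak. Of 14 p53 family and squamous genes 6 had a siFOXA1 and 11 a siNS consensus region, with 11 of 32 kept. TP73, the other p53 relative, had 2 and 6. None of this list's 10 siFOXA1 consensus regions was siFOXA1-only, against 40.0% of all siFOXA1 consensus regions. TP63 therefore differed in its counts from its relative TP73, a difference that was not tested.

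The relatives and partners of the other genes showed a range of counts. Of 17 other SOX genes 7 had a siFOXA1 and 11 a siNS consensus region, with 9 of 28 kept. SOX13 had 3 and 10, and SOX5 had 3 siFOXA1 consensus regions, all siFOXA1-only, beside 2 of siNS. Of 8 engrailed and homeobox partner genes 4 had a siFOXA1 and 6 a siNS consensus region, with 3 of 20 kept. Of 16 genes of the TEAD, YAP and VGLL group 8 had a siFOXA1 and 13 a siNS consensus region, with 10 of 34 kept, and VGLL4, which like VGLL1 binds TEAD factors, had 0 and 7. Of 14 BCL11 and BAF genes 4 had a siFOXA1 and 14 a siNS consensus region, with 7 of 40 kept, and BCL11B, the relative of BCL11A, had 0 and 5. Of 10 other TRIM genes 1 had a siFOXA1 and 8 a siNS consensus region, with 2 of 17 kept. Over all protein-coding genes, 16.1% of the siNS consensus regions assigned to a gene were kept.

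The 12 luminal regulators, a list that includes FOXA1, GATA3 and ESR1, were set beside the 7 genes. They had 144 regions, of which 59 were siNS consensus regions with 19 kept (32.2%, exact interval 20.6 to 45.6%), against 2 of 17 at the 7 genes. Of their 25 siFOXA1 consensus regions, 5 had no siNS peak (20%, 6.83 to 40.7%), against 5 of 9 at the 7 genes. Over all regions these shares were 17.0% and 40.0%. The second share was not particular to the 7 genes. It was also 5 of 9 in the engrailed and homeobox partner list and 5 of 9 in the TEAD, YAP and VGLL list. It was 5 of 12 at the basal genes and 5 of 12 at the other SOX genes. Lower counts were 1 of 6 at BCL11 and BAF genes, 0 of 10 at p53 family and squamous genes, 0 of 3 at myoepithelial genes and 0 of 1 at TRIM genes. A siFOXA1 consensus region was present at 9 of the 12, against 3 of the 7 and 19.4% of all protein-coding genes. The intervals of both shares overlap between the luminal regulators and the 7 genes. No test was made, since all of these genes were chosen with results known.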

How the data were processed

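TLE3 ChIP-seq peak lists of 2 siFOXA1 and 2 siNS libraries of MDA-MB-453 cells were used; groups and replicate numbers come from the sample titles, and the list of siFOXA1 2 carries another number in its name. The authors deposited 1 list per library with 5 columns, the last a score per peak. Trim Galore, BWA 0.7.5a, SAMtools, MACS2 and the hg38 build are named, per the submitters' processing notes. Settings, thresholds, the use of the inputs and the score's definition were not given in the sources used here, and depth is unknown. The score was used only for ranks within a list.

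Analysis was limited to the numbered chromosomes, X and Y, so 4, 9, 4 and 3 peaks were dropped from siFOXA1 1, siFOXA1 2, siNS 1 and siNS 2. Positions are 1-based. Peaks sharing at least 1 bp were merged over the 4 lists, and regions were assigned to the gene whose span held them or to the nearest protein-coding gene within 100 kb. Gene positions came from a RefSeq table on GRCh38.p14, which gives no strand, exons or UTRs; strands came from the RefSeq promoter windows, used for BCL11A, TP63, VGLL1 and 2 noncoding loci. Shares have exact Clopper-Pearson 95% intervals for counting error only.

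The genes and the 9 related lists (135 symbols, each found in the RefSeq table, 1 of them as a synonym) were chosen with earlier results of these data known. All regions of the 7 genes are counted. Those described in full are the 3 of each gene with the best percentile, those of both siFOXA1 libraries and those within 1 kb of a gene end. Like genes have the nearest numbers of the 4 region patterns by Euclidean distance, ties by symbol.

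The alternatives were a score minimum at the list median, lists of equal length, 50% overlap, peaks widened by 250 bp, limits of 10 and 500 kb, assignment among all genes or by gene ends, ranks by width, 5 kb from a gene end, a replicate block and leaving out each library. Merging and assignment recovered 1000 simulated regions and gave the same 72272 merged regions as bedtools. Python 3.11.15, numpy 2.4.6, scipy 1.17.1, matplotlib 3.10.9 and bedtools 2.31.1 were used.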

Additional observations from a re-analysis of the deposited data

How the results depend on the processing

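Of 85 recomputed summary values 65 stayed within the spread or within 1.5 times the reported value, and 20 moved. Only the size of a change was scored. For the kept share the spread was its wide exact interval, 1.46 to 36.4%. Of 222 values for single genes or related lists 185 stayed and 37 moved. Without the peaks that scored below their list's median there were 3 siFOXA1-only, 6 siNS-only and 0 common regions and 5 siFOXA1 consensus regions, with a mean of 6.5 peaks in siFOXA1 and 14 in siNS libraries. With lists of equal length there were 1 siNS-only and 1 common region, 5.5 peaks in siNS libraries and 50% of the siNS consensus regions kept, which is 1 of 2. Within 10 kb of a gene there were 3 siFOXA1-only, 9 siNS-only and 1 common region and 5 siFOXA1 consensus regions, with 7 peaks in siFOXA1 and 20 in siNS libraries. Fewer peaks or regions enter these counts by construction. Within 5 kb of a gene end lay 14 regions in place of 6.

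Leaving out each library in turn gave 5 to 7 siFOXA1-only, 15 to 31 siNS-only and 2 to 4 common regions, 9 to 12 siFOXA1 consensus regions, 6.06 to 17.9% of siNS consensus regions kept, and 10 to 12 peaks in siFOXA1 and 28 to 33 in siNS libraries. With a replicate block, which compares each siNS library only with the siFOXA1 library of its number, the kept shares were 6.25% for number 1 and 14.8% for number 2. These shares are over single siNS libraries and are not comparable with the 17.0% of all consensus regions. The same holds for the 17.9% kept without siNS 1 and the 6.06% kept without siNS 2, each over 1 siNS library. The library numbers are not stated to pair the libraries. At TP63 the siFOXA1-only count ranged from 2, within 10 kb, to 6, without siFOXA1 2 or siNS 2. By gene ends only, TP63 had 1 siNS consensus region in place of 3 and SOX10 1 in place of 0. When all annotated genes compete, 10 of the 50 regions overlap or are nearest to a noncoding gene, and TRIM29 has 2 siNS consensus regions in place of 4. The limits are 2 libraries a group, unknown depth, lists of unequal length and an undefined score.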
